A study of Homo sapiens with 6 samples.

Results

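The cadherin and protocadherin genes of Y79 cells were compared between arginine-depleted and complete medium. The members are the protein-coding genes whose symbols are CDH followed by a number or start with PCDH, which gave 89 of the 63140 gene IDs in the count table. They comprised 18 classical cadherins, 53 clustered protocadherins (15 PCDHA, 16 PCDHB and 22 PCDHG genes) and 18 others, of which 13 were non-clustered protocadherins. The rule goes by symbol and uses no measured value, but it was set with earlier results of these data known. PCDH11Y was counted as a member, but its level is not given, so levels are described for 88 members.

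Y79 is a long-established line of human retinoblastoma cells, here with a wild-type genotype per the labels. Both groups grew in RPMI 1640 medium with fetal bovine serum and penicillin–streptomycin. The control group (3 libraries) stayed in complete medium, and the rhArg group (3 libraries) received recombinant human arginase (rhArg), an enzyme that breaks down arginine, at 2 U/mL, with RNA taken at 72 h in both groups. The cells are 1 line grown in suspension, so neither tissue nor stroma was present, and nothing in the sources tells if the libraries came from separate cultures.

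Cadherins are calcium-dependent adhesion molecules of the cell surface. Classical cadherins (type I, such as CDH1 and CDH2, and type II, such as CDH18 and CDH20) bind the same cadherin on a neighbouring cell and connect through catenins to actin. The clustered protocadherins are encoded by neighbouring gene arrays on chromosome 5. Each variable exon has a promoter of its own, and the PCDHA and PCDHG variable exons are spliced to constant exons that the whole array shares. Neurons express different combinations of them, by which a cell can tell its own branches from those of others. CDH23 and PCDH15 form the tip link of inner-ear hair cells and also occur in photoreceptors.

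The libraries held between 12580622 and 13747351 counts, of which the members took between 0.0434% and 0.0497%. All 9 genes of a list for the photoreceptor lineage and retinoblastoma were measured, among them MYCN, CRX and OTX2, and the summed normalized count of that list lay between 74980 and 93760 in the controls and between 38660 and 39790 in the rhArg group. MYCN made up most of that difference, at 56190, 61790 and 44820 in the controls and 14010, 13270 and 12000 under rhArg. At an adjusted p under 0.05, 6 of the 9 genes were lower, among them MYCN, OTX2, NRL and RXRG, beside 30.9% of all genes tested. CRX was the only 1 of the 9 that was higher, by 0.62 ± 0.09 on the log2 scale (adjusted p = 2.27e-05). A normalized count is a count scaled to a common library size. Lists of 4 markers each for leukocytes and fibroblasts stayed at sums of at most 66.9 normalized counts in every library, and the defining endothelial genes PECAM1 and KDR had at most 1 count in any library. The sum of the 4 endothelial markers, mostly CLDN5, lay between 91.4 and 158.5 in the controls and between 43.4 and 51.9 in the rhArg group. CLDN5 was lower under rhArg (log2 fold change -1.66 ± 0.25, adjusted p = 3.19e-05). VWF, the remaining marker, was higher, with a mean of 4.09 normalized counts in the controls and 13.4 under rhArg (log2 fold change 1.7 ± 0.45, adjusted p = 0.00401). The sum of 4 retinal pigment epithelium markers lay between 3.23 and 5.87 in the controls and between 120 and 139 in the rhArg group, nearly all from BEST1, whereas TYR was at 0. The sum of 4 Mueller glia markers lay between 6487 and 6835 in the controls and between 5430 and 5931 in the rhArg group. GLUL made up most of it and fell by 0.31 ± 0.09 on the log2 scale (adjusted p = 0.00504), and RLBP1 was at 0. The 2 other markers were higher. SLC1A3 went from 11.9–17.2 to 164–214 normalized counts, and CLU from 150–176 to 169–299 (log2 fold change 0.54 ± 0.18, adjusted p = 0.0164). Whether these genes bear on the changes of the members was not tested.

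Cadherin genes did not move as 1 block. Most called clustered protocadherins and classical cadherins were higher in the arginine-depleted group, whereas CDH23, the member with the most counts, and a few protocadherins were lower. Enough counts for the test were present for 47 members. With the study's thresholds (adjusted p under 0.05 with a log2 fold change above 1 or below -1), 21 members were higher and 2 were lower, which is 44.7% and 4.26% of those tested, against 12.4% and 11% of all 15221 genes tested. Without a fold cutoff, 30 members were higher and 6 lower, beside 30.7% and 30.9% of all genes, and 11 members did not pass the test. The rhArg libraries lay wholly above the controls for 32 of the 47 members and wholly below for 9, beside 33.4% and 33.1% of all genes.

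The number of higher members depends on the filter for low counts. Of the 47 members, 16 passed it only through the rhArg libraries and 1, CDH15, only through the controls, so the filter favoured a difference in these. Of the 16, 14 were called higher. The other 30 had enough counts in every library, and 7 of them were higher and 1 was lower with the fold cutoff, against 9.13% and 9.21% of the 13221 genes with enough counts in every library. Without the fold cutoff 15 of the 30 were higher and 5 lower, against 30.0% and 31.9%. In bulk RNA, fewer cells that express a gene and less RNA per cell cannot be told apart.

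**Figure D1:**
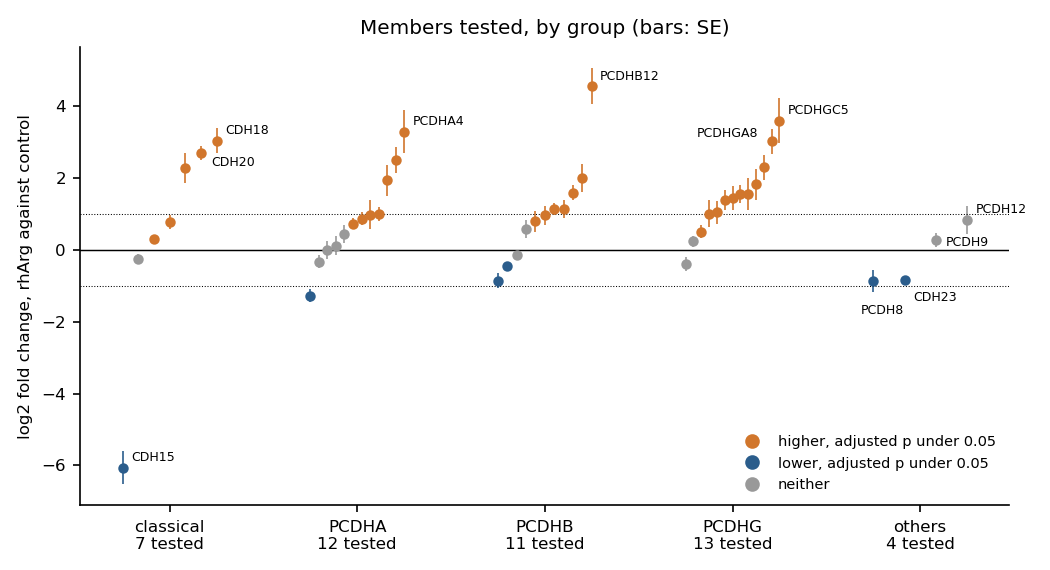
The log2 fold change (rhArg against control) of the 47 members tested is plotted on the vertical axis with its SE for classical cadherins, PCDHA, PCDHB, PCDHG and the others. Points above 0 prevail among the clustered arrays and CDH15 stands alone near -6, while the dotted lines mark a log2 fold change of 1 in either direction.

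Among the 18 classical cadherins, 7 were tested. With the fold cutoff 3 were higher (CDH18, CDH20 and CDH3) and 1, CDH15, was lower, beside 12.4% and 11% of all genes. Without it CDH2 and CDH24 also rose, which made 5 higher and 1 lower, beside 30.7% and 30.9%. CDH22 did not pass the test. CDH18 and CDH3 passed the count filter only through the rhArg libraries, and CDH15 only through the controls. Of the 4 with enough counts in every library, 1 was higher and 0 were lower with the cutoff, beside 9.13% and 9.21% of such genes.

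CDH20, a type II cadherin of neural tissue, stood at 31.8, 22.6 and 25.4 normalized counts in the controls and at 194, 161 and 160 in the rhArg group. The groups lay far apart, with a log2 fold change of 2.68 ± 0.20 (SE) and an adjusted p of 1.39e-08. CDH18, another type II cadherin of the nervous system, had 10.9, 7.54 and 4.89 normalized counts in the controls and 70.8, 43.9 and 78.1 under rhArg. Every rhArg library exceeded every control (log2 fold change 3.03 ± 0.34, adjusted p = 1.21e-06).

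CDH15, or M-cadherin, best known from skeletal muscle, went the other way. The controls held 94.3, 101 and 91.9 normalized counts, and 2 of the 3 rhArg libraries held none. All 4 rhArg counts came from replicate 2, against 283 counts in the controls. The ratio of the summed counts was 72.8 (95% counting interval 28.1 to 269, which covers counting error only), and the adjusted p was 2.16e-08.

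CDH1 and CDH5, textbook markers of epithelial and endothelial cells, were nearly absent from the counts. CDH1 (E-cadherin) had 2 counts in the controls and 3 in the rhArg libraries and was not tested. CDH5, the endothelial cadherin, had 0 counts in all 6 libraries.

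CDH2 (N-cadherin), the cadherin of neural cells, was the type I member with the most counts under rhArg. It stood at 81.4, 49.5 and 68.4 normalized counts in the controls and at 99.7, 117 and 124 in the rhArg group. Each rhArg library was above each control, with a log2 fold change of 0.77 ± 0.20 and an adjusted p of 0.0032.

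CDH3 (P-cadherin), which epithelia including the retinal pigment epithelium express, had 10 counts in the controls and 51 in the rhArg libraries, a ratio of 4.96 (95% counting interval 2.49 to 11). Its normalized counts were 3.97, 4.31 and 1.96 in the controls and 16.0, 18.0 and 16.4 under rhArg, with an adjusted p of 2.41e-04. The pigment epithelium list given above was higher in the same 3 libraries, mostly through BEST1, and its part in the CDH3 value was not tested. CDH4 (R-cadherin, for retinal cadherin) did not pass the count filter. Its counts were 0, 1 and 1 in the controls and 11, 9 and 9 in the rhArg group, a ratio of 14.1 (95% counting interval 3.57 to 122).

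CDH24 and CDH22 held most of the classical cadherin counts. CDH24, a type II cadherin, ranged from 594 to 792 normalized counts in the controls and from 768 to 908 under rhArg. Its groups overlapped, although the test passed (log2 fold change 0.29 ± 0.11, adjusted p = 0.0385). CDH22, a type II cadherin of the brain, ranged from 327 to 451 in the controls and from 303 to 322 under rhArg. Its log2 fold change of -0.25 ± 0.13 did not pass (adjusted p = 0.107). Both are named here for their level and not by the rule for named genes. Of the other type II cadherins, CDH11 had 13 counts in the controls and 40 in the rhArg libraries, and CDH12 and CDH10 had at most 19 counts in a group. CDH8 had 0 counts, and CDH6, CDH7, CDH9 and CDH19 had at most 2 counts in a group.

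**Figure D2:**
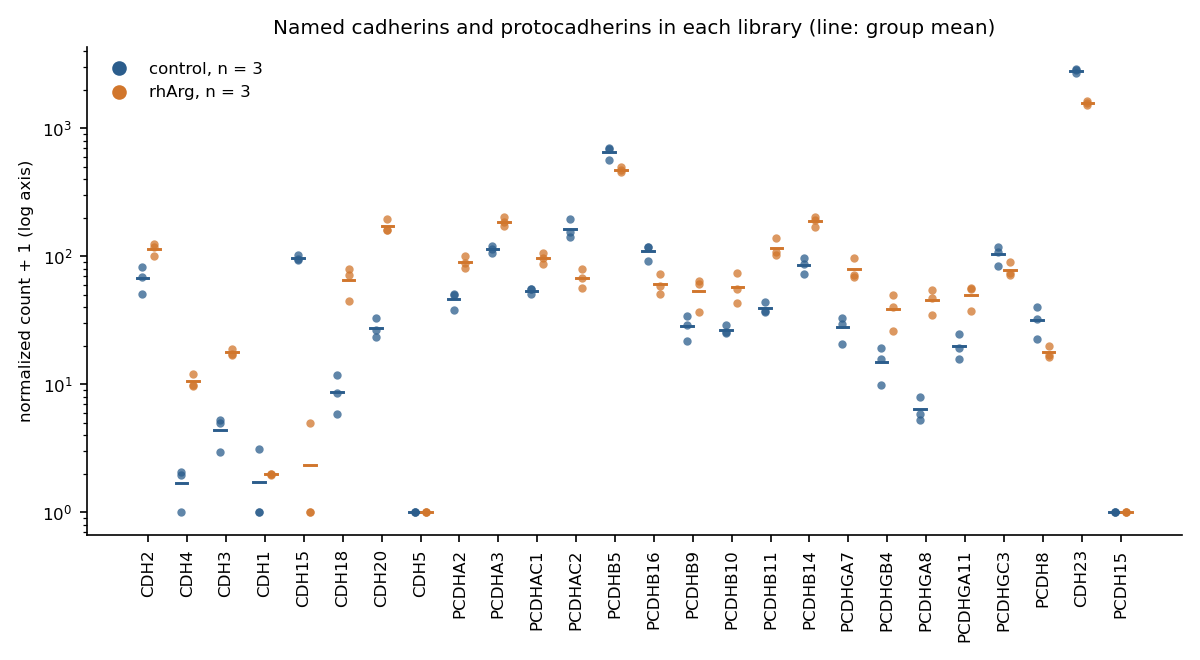
Normalized counts plus 1 (log axis) of the 26 members named by rule are plotted for each of the 3 control and 3 rhArg libraries, with a line at the group mean. CDH20, CDH18 and PCDHGA8 lie higher in all rhArg libraries, CDH15, CDH23 and PCDHAC2 lie lower, and CDH5 and PCDH15 are at 0 throughout.

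Of the 53 clustered protocadherins, 36 were tested. With the fold cutoff 18 of them were higher and 1, PCDHAC2, was lower, beside 12.4% and 11% of all genes. Without it 25 were higher and 3 lower, beside 30.7% and 30.9%, and 8 did not pass. Of these 36, 13 passed the count filter only through the rhArg libraries, and 12 of the 13 were called higher. Of the 23 with enough counts in every library, 6 were higher and 1 was lower with the fold cutoff, beside 9.13% and 9.21% of all genes with such counts. The summed normalized count of all 53 was 2000, 2296 and 2320 in the controls and 2795, 2666 and 2606 in the rhArg libraries, a ratio of 1.22.

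The 3 arrays lie in a row on chromosome 5 of hg38, with PCDHA at chr5:140786136-141012347, PCDHB at chr5:141051374-141249365 and PCDHG at chr5:141330514-141512977, all on the plus strand. The counting assigned no read that overlaps several genes, so reads in the shared constant exons (2869 bases common to the PCDHA genes and 2177 bases to the PCDHG genes) were left out. The values therefore come mostly from the variable exons. Between 21.4% and 99.9% of the exon bases of a PCDHA gene, and between 27.5% and 64.4% of those of a PCDHG gene, lay in another gene. PCDHA1, with 99.9%, had 0 counts, which says nothing about its RNA.

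Promoters of the arrays are shown because each variable exon starts at its own promoter. Neighbours that hold the same short stretch of sequence there differed in their values. RefSeq promoters (250 bases before to 50 after the start, GRCh38.p14) were matched for 47 of the 53 genes. The 9-letter word shared by most promoters of an array was searched for, and the capitals below mark it. In PCDHB the word was GGTGGCGCT, present in 13 of 14 promoters and on either strand in 0.524% of all 27305 promoters.

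PCDHB2 (chr5:141094545-141094574, plus strand): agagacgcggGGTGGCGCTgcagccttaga
PCDHB5 (chr5:141135180-141135209, plus strand): taggacgcctGGTGGCGCTgcaggctaaga
PCDHB16 (chr5:141182311-141182340, plus strand): gagaacgcgtGGTGGCGCTgcaggttaaga
PCDHB10 (chr5:141192300-141192329, plus strand): gaggccacacGGTGGCGCTgcaggctaaag
PCDHB12 (chr5:141208644-141208673, plus strand): ggagacgcgtGGTGGCGCTgcaggataata
PCDHB14 (chr5:141223264-141223293, plus strand): ggagacacatGGTGGCGCTacaggataaga
PCDHB15 (chr5:141245315-141245344, plus strand): gacaacgcatGGTGGCGCTgcaggctaagg

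Among these, PCDHB5 and PCDHB16 were lower, PCDHB2 did not pass the test and the other 4 were higher. In the shown promoters the word started between 16 bases (PCDHB5) and 70 bases (PCDHB15) before the start, and genes of both directions held it.

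In PCDHA the word was GATGTCGCT, present in 9 of 13 promoters, between 43 and 86 bases before the start, and in 0.103% of all promoters. In PCDHG it was GCGCCGCTG, present in 10 of 20 promoters, between 44 and 99 bases before the start, and in 1.25% of all promoters. All 3 words hold the letters CGCT, the core of a sequence element known from these promoters. Of the shown genes PCDHA12 did not pass the test and the others were higher under rhArg. PCDHA10, which is not shown, also holds the word and did not pass. Of the tested holders, 3 of 6 in PCDHA and 5 of 8 in PCDHG passed the count filter only through the rhArg libraries. Of 4 tested PCDHA genes whose promoter lacked the word, 2 were higher and 1 lower without a fold cutoff. Of 3 such PCDHG genes, 1 was higher and 2 did not pass. A link between the words and the values was not tested.

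PCDHA2 (chr5:140794782-140794811, plus strand): ttagccacatGATGTCGCTgtccaccatag
PCDHA4 (chr5:140806980-140807009, plus strand): ggagccacatGATGTCGCTctttaccacaa
PCDHA5 (chr5:140821543-140821572, plus strand): tcatccacatGATGTCGCTggacaccggaa
PCDHA7 (chr5:140834173-140834202, plus strand): atggccacatGATGTCGCTctttaccgcaa
PCDHA12 (chr5:140875245-140875274, plus strand): tcagtcacatGATGTCGCTctacactcaga
PCDHGA7 (chr5:141382651-141382680, plus strand): aggactcacaGCGCCGCTGttcaccaacca
PCDHGB4 (chr5:141387619-141387648, plus strand): ctgactctggGCGCCGCTGttggccaaagt
PCDHGA8 (chr5:141392570-141392599, plus strand): aggactgtaaGCGCCGCTGttcacctactg
PCDHGB6 (chr5:141407926-141407955, plus strand): gagcctctggGCGCCGCTGtcggccagtgc
PCDHGA11 (chr5:141420974-141421003, plus strand): tgggctctagGCGCCGCTGctcaccaatca

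Among the 15 PCDHA genes, 12 were tested, of which 3 were higher and 1 lower with the fold cutoff, beside 12.4% and 11% of all genes. Without it 7 were higher and 1 lower, beside 30.7% and 30.9%. The 3 genes higher with the cutoff passed the count filter only through the rhArg libraries. Of the 8 with enough counts in every library, 0 were higher and 1 was lower with the cutoff, beside 9.13% and 9.21% of such genes. PCDHA3 was the PCDHA gene with the most counts under rhArg, at 113, 120 and 106 normalized counts in the controls and 172, 201 and 185 in the rhArg libraries. It rose by 0.72 ± 0.15 on the log2 scale (adjusted p = 4.91e-04). PCDHA2, which shares 3431 exon bases with PCDHA3, had 48.7, 49.5 and 37.2 normalized counts in the controls and 99.7, 80.8 and 87.7 under rhArg (log2 fold change 0.99 ± 0.20, adjusted p = 4.38e-04). In both genes the groups did not overlap.

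The 2 C-type genes at the end of the PCDHA array, whose products differ in sequence from the alternate isoforms, changed in opposite directions. PCDHAC1 stood at 54.6, 54.9 and 49.9 normalized counts in the controls and 96.7, 106 and 86.8 in the rhArg group (log2 fold change 0.86 ± 0.18, adjusted p = 6.95e-04). PCDHAC2 stood at 140, 155 and 194 in the controls and 78.8, 66.9 and 55.9 under rhArg. It fell by 1.28 ± 0.19 on the log2 scale, with an adjusted p of 2.04e-05, and was the only clustered member called lower with the fold cutoff when all 6 libraries were fitted. Both groups of libraries were apart in each gene.

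The low-count genes PCDHA4, PCDHA5 and PCDHA7 also rose. PCDHA4 had 6 counts in the controls and 63 in the rhArg libraries, a ratio of 10.2 (95% counting interval 4.44 to 28.9). PCDHA5 had 15 and 88 counts and PCDHA7 had 11 and 44. Values changed along the array. Of the 8 genes from PCDHA2 to PCDHA9, all 6 tested were higher without a fold cutoff, and the sum of the 8 was 190, 199 and 166 normalized counts in the controls and 379, 378 and 363 under rhArg. PCDHA4, PCDHA5, PCDHA7 and PCDHA9 passed the count filter only through the rhArg libraries, so the filter favoured a rise in these. None of the 4 genes from PCDHA10 to PCDHA13 passed the test by edgeR or DESeq2, also at an unadjusted p under 0.05 in edgeR, and their sum was 170, 167 and 183 in the controls and 182, 164 and 156 under rhArg. These stretches, and those described below, were drawn after the values were seen and carry no test.

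**Figure D3:**
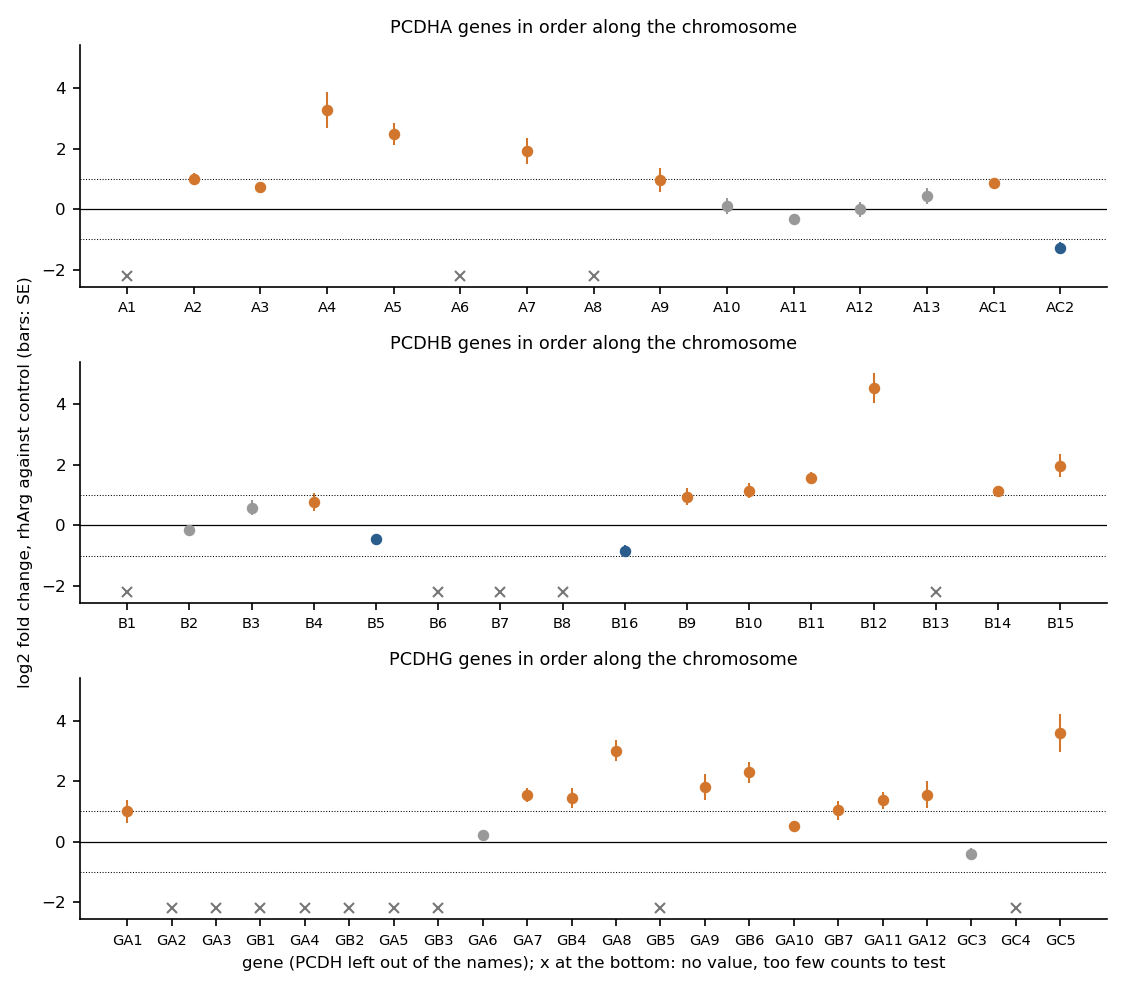
The log2 fold change (rhArg against control, with its SE) of each clustered protocadherin is plotted in the order of the genes along the PCDHA, PCDHB and PCDHG arrays, with crosses for genes with too few counts. Most higher genes (orange) lie in PCDHA2 to PCDHA9, PCDHB9 to PCDHB15 and PCDHGA7 to PCDHGA12, and the 3 lower genes (blue) are PCDHAC2, PCDHB5 and PCDHB16.

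The 16 PCDHB genes have no shared constant exon, but 43.9% of the exon bases of PCDHB2 and 26.1% of those of PCDHB16 lie in other genes. Of 11 tested, 5 were higher with the fold cutoff, beside 12.4% of all genes, and the lowest log2 fold change was -0.86. Without the cutoff 7 were higher and 2 lower, beside 30.7% and 30.9%. Of the 5, PCDHB12 and PCDHB15 passed the count filter only through the rhArg libraries. Of the 9 with enough counts in every library, 3 were higher and 0 lower with the cutoff, beside 9.13% and 9.21% of such genes. PCDHB5 had more counts than any other clustered member, at 560, 684 and 704 normalized counts in the controls and 459, 472 and 496 in the rhArg group. It fell by 0.45 ± 0.11 on the log2 scale (adjusted p = 0.00205). PCDHB16 fell by 0.86 ± 0.20, from 90.4, 117 and 118 to 57.8, 49.9 and 71.3 normalized counts (adjusted p = 0.00121). For both genes every rhArg library was below every control.

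The higher PCDHB genes lay between PCDHB9 and PCDHB15, apart from PCDHB4 (log2 fold change 0.78 ± 0.30, adjusted p = 0.0313). PCDHB3, next to PCDHB4, narrowly missed the threshold (log2 fold change 0.58 ± 0.25, adjusted p = 0.0513), with every rhArg library above every control. PCDHB11 stood at 36.7, 35.5 and 43.0 normalized counts in the controls and 107, 139 and 101 under rhArg (log2 fold change 1.58 ± 0.20, adjusted p = 5.13e-06). PCDHB14 stood at 71.5, 86.2 and 96.8 in the controls and 168, 190 and 202 under rhArg (log2 fold change 1.13 ± 0.16, adjusted p = 1.96e-05). The groups of both were clearly apart. PCDHB10 went from 24.8, 28.0 and 24.4 to 72.8, 54.9 and 42.4 (log2 fold change 1.14 ± 0.25), and PCDHB9 from 20.9, 28.0 and 33.2 to 62.8, 35.9 and 59.8 (log2 fold change 0.95 ± 0.27).

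PCDHB12 had the largest fitted log2 fold change of any member, 4.55 ± 0.50, on few control reads. It passed the count filter only through the rhArg libraries, so the filter favoured a difference. Its counts were 2, 2 and 0 in the controls and 39, 27 and 39 in the rhArg libraries, a ratio of 25.5 (95% counting interval 9.68 to 95.4) with an adjusted p of 1.17e-06. Summed from PCDHB9 to PCDHB15, the counts were 164, 187 and 210 in the controls and 482, 478 and 479 under rhArg, in normalized counts. The 9 genes from PCDHB1 to PCDHB16 in chromosomal order summed to 837, 1010 and 1040 in the controls and 752, 724 and 768 under rhArg, carried mainly by PCDHB5. The sum of all PCDHB genes lay between 1001 and 1248 in the controls and between 1202 and 1248 under rhArg, so the groups overlapped.

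In the PCDHG array 13 of 22 genes were tested. Of these 10 were higher with the fold cutoff, beside 12.4% of all genes, and the lowest log2 fold change was -0.41. Without the cutoff, 11 were higher, beside 30.7% of all genes, and 2 did not pass. The count of lower PCDHG genes was 0 by edgeR and by DESeq2 and 1, PCDHGC3, at an unadjusted p under 0.05. Of the 13, 7 passed the count filter only through the rhArg libraries, and all 7 of these were called higher. Of the 6 with enough counts in every library, 3 were higher and 0 lower with the cutoff, beside 9.13% and 9.21% of such genes. The PCDHG sum was 445, 527 and 480 normalized counts in the controls and 826, 749 and 697 in the rhArg group, a ratio of 1.57.

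PCDHGA7 stood at 28.8, 32.3 and 19.6 normalized counts in the controls and 96.7, 69.9 and 67.5 under rhArg (log2 fold change 1.54 ± 0.24, adjusted p = 5.28e-05). PCDHGA8 had 6.95, 4.31 and 4.89 in the controls and 53.9, 45.9 and 33.7 under rhArg (log2 fold change 3.01 ± 0.35, adjusted p = 1.76e-06). Neither gene had an rhArg library as low as its highest control. PCDHGB4, which shares 4443 exon bases with PCDHGA8, went from 8.94, 18.3 and 14.7 to 48.9, 38.9 and 25.1 (log2 fold change 1.43 ± 0.33), and PCDHGA11 from 23.8, 18.3 and 14.7 to 54.8, 55.9 and 36.6 (log2 fold change 1.37 ± 0.28). Of these genes, PCDHGA8 and PCDHGB4 passed the count filter only through the rhArg libraries.

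The PCDHG gene with the most counts was not among those that rose. PCDHGA6 stood at 140, 191 and 175 normalized counts in the controls and 185, 210 and 197 under rhArg, with overlapping groups and an adjusted p of 0.194. PCDHGC3, a C-type gene used widely outside the nervous system as well, stood at 83.4, 117 and 107 in the controls and 72.8, 69.9 and 88.7 under rhArg, also with overlap (log2 fold change -0.41 ± 0.19, adjusted p = 0.0709). PCDHGC5, another C-type gene, had 3 counts in the controls and 41 in the rhArg libraries, a ratio of 13.3 (95% counting interval 4.24 to 67.1).

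Values also varied along the PCDHG array, and of the 11 higher genes PCDHGA1 and PCDHGC5 lay outside the stretch described here. From PCDHGA7 to PCDHGA12, all 9 tested genes of 10 were higher without a fold cutoff, and the sum of the 10 was 180, 165 and 154 normalized counts in the controls and 503, 392 and 351 under rhArg. PCDHGB4, PCDHGA8, PCDHGA9, PCDHGB6 and PCDHGA12 passed the count filter only through the rhArg libraries, so the filter favoured a rise in these. In PCDHGA12 the rhArg value was 41.9 in replicate 1 and 14.0 and 16.4 in the others, and without replicate 1 its log2 fold change of 0.90 did not pass (adjusted p = 0.0882). The 7 neighbours from PCDHGA2 to PCDHGB3 had between 4 and 32 counts per gene and group and were not tested, with a summed count of 104 in the controls and 100 in the rhArg libraries.

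**Figure D4:**
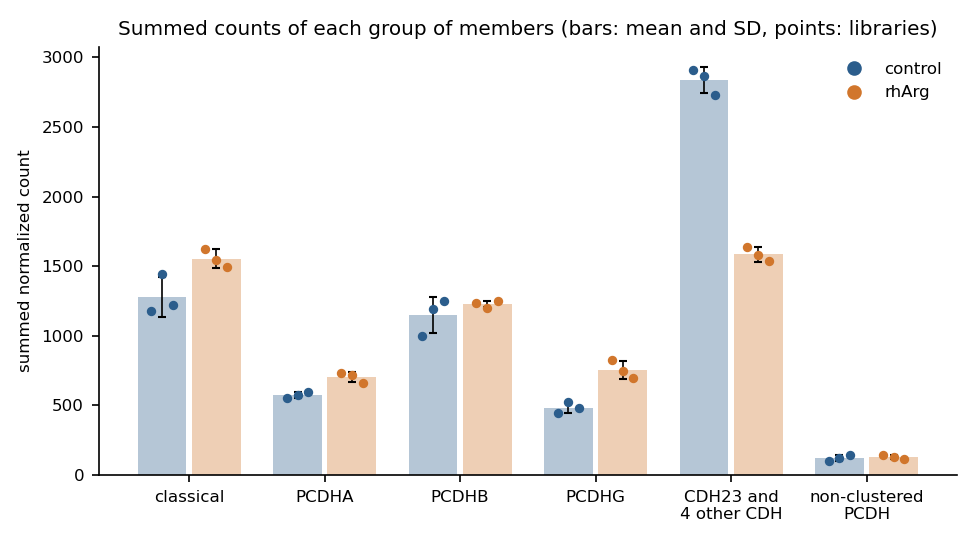
Bars give the mean summed normalized count (with SD) of 6 groups of members in the 3 control and 3 rhArg libraries, and points give each library. The PCDHG sum is higher in every rhArg library, the PCDHB sums overlap, and the sum of CDH23 with 4 other CDH genes is lower.

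The remaining 18 members were mostly silent or nearly so, and the 4 that were tested had log2 fold changes between -0.87 and 0.83, so none passed the fold cutoff in edgeR's quasi-likelihood test. Without it 2 of the 4 were lower, beside 30.9% of all genes, and 2 did not pass. The count of lower genes was also 2 at an unadjusted p under 0.05. DESeq2 called 1 higher, PCDH1, and 1 lower, PCDH18, with the fold cutoff over all genes with any count.

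CDH23 stood out for its counts, which made up 43.9% of all members' normalized counts in the controls and 26.5% under rhArg. It encodes a very long cadherin, and counts grow with length. It stood at 2898, 2859 and 2716 normalized counts in the controls and 1631, 1575 and 1534 in the rhArg group. The groups were far apart relative to their spread, and CDH23 fell by 0.84 ± 0.09 on the log2 scale (adjusted p = 6.06e-07). Of its exon bases (chr10:71396920-71815947), 18.9% also lie in C10orf105, whose own counts were 10 in the controls and 5 in the rhArg libraries. PCDH15, its partner in the tip link, had 0 counts in all 6 libraries. Without CDH23 the summed normalized count of the members was 3288, 3870 and 3700 in the controls and 4572, 4344 and 4221 under rhArg.

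Among the non-clustered protocadherins, PCDH8, a delta-2 protocadherin of synapses, had 21.8, 31.2 and 39.1 normalized counts in the controls and 18.9, 16.0 and 15.4 under rhArg. The groups did not overlap and the log2 fold change was -0.87 ± 0.30 (adjusted p = 0.019). This call was lost without control replicate 3 (adjusted p = 0.0993), without rhArg replicate 2 (0.0564) and without rhArg replicate 3 (0.0585). PCDH9, a delta-1 protocadherin, ranged from 62.6 to 84.1 in the controls and from 72.3 to 103 under rhArg and did not pass (adjusted p = 0.264). PCDH12 had 24 and 44 counts and an adjusted p of 0.0793.

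Some changes lay below the count filter. PCDH1 had counts of 0, 0 and 1 in the controls and 11, 5 and 9 in the rhArg libraries, a ratio of 24.3 with a wide 95% counting interval of 3.98 to 998. PCDH18 had 8, 2 and 3 counts in the controls and 0 in all 3 rhArg libraries, so it was at least 4.46-fold lower against a floor of 3 counts over the group. CDH26 had 31 and 10 counts. CDH13, CDH17 and PCDH11X had 0 counts, and PCDH7, PCDH10, PCDH17, PCDH19 and CDH16 had between 0 and 9 counts in a group. PCDH20 also had 0 counts, but 91.3% of its exon bases lie in an overlapping ID that had 0 counts as well, and reads falling in both would not be counted.

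Levels between genes were compared per length, as CPM (counts scaled by library size) per kilobase of exon that lies in no other gene. In the controls the order began with PCDHB5 at 16.9 ± 2.03 (SD, n = 3), CDH23 at 14.2 ± 0.48 and CDH24 at 14.0 ± 2.00. CDH23 and CDH24 lay within their SD of each other. CDH22 followed at 5.72 ± 1.08 and PCDHB2 at 4.93 ± 0.279, which also lay within their spread, and then PCDHAC2 at 3.78 ± 0.641. Under rhArg CDH24 led at 17.1 ± 1.42, followed by PCDHB5 at 12.4 ± 0.487 and CDH23 at 7.94 ± 0.244, apart from each other by more than their SD. PCDHAC2 moved from place 6 to place 16 and CDH15 from place 12 to place 66, while PCDHB14 moved from place 13 to place 7.

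**Figure D5:**
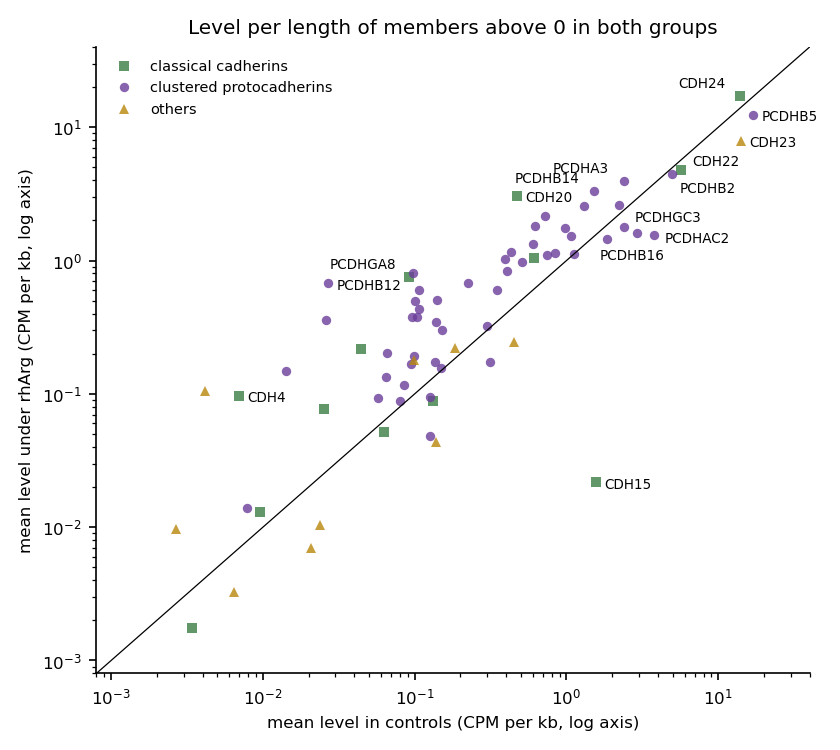
The mean level per length (CPM per kilobase, log axes) in the controls is plotted on the horizontal axis against the mean level under rhArg for members above 0 in both groups, with a line of equality. CDH15 lies far below the line, CDH20, CDH4 and PCDHB12 lie above it, and PCDHB5, CDH23 and CDH24 hold the highest levels.

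Genes that act with cadherins were taken from fixed lists, whose counts without a fold cutoff stand beside 30.7% higher and 30.9% lower among all genes tested. Of 12 catenins and junction linkers, 11 were tested, 5 were higher and 2 lower without a fold cutoff. CTNND2 (delta-catenin, a neural catenin) rose from 747, 979 and 974 normalized counts to 2441, 2419 and 2397 (log2 fold change 1.43 ± 0.11, adjusted p = 1.91e-08). CTNNBIP1, an inhibitor of beta-catenin, rose by 0.85 ± 0.12, and JUP (plakoglobin) by 0.77 ± 0.11, on the log2 scale. CTNNB1 (beta-catenin), the link between classical cadherins and alpha-catenin, fell by 0.45 ± 0.09, from 3746, 3662 and 3771 to 2792, 2601 and 2799 normalized counts (adjusted p = 2.86e-04). CTNNA2, the neural alpha-catenin, had 114 counts in the controls and 1 in the rhArg libraries, a ratio of 117 (95% counting interval 20.6 to 4670), while CTNNA1 did not pass the test (adjusted p = 0.133).

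Of 25 further genes of the cadherin superfamily, 10 were tested, 5 were higher and 2 lower. CDHR1, the photoreceptor cadherin of outer segments, fell by 1.78 ± 0.09 on the log2 scale, from 8063, 8449 and 9366 to 2585, 2593 and 2376 normalized counts (adjusted p = 3.6e-10), and CLSTN1 fell by 0.52 ± 0.09. CELSR3, CLSTN3 and RET rose by 1.13 ± 0.10, 0.98 ± 0.11 and 2.99 ± 0.40. The desmosomal cadherins DSC2, DSC3, DSG1, DSG2, DSG3 and DSG4 had 0 counts.

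Of 7 repressors of cadherin genes, 5 were tested, 3 were lower and 0 higher, by edgeR, by DESeq2 and at an unadjusted p under 0.05 in edgeR. SNAI2 had 148 counts in the controls and 3 in the rhArg libraries, a ratio of 50.7 (95% counting interval 17.0 to 249). SNAI1 fell by 0.81 ± 0.15 and ZEB1 by 0.31 ± 0.10 on the log2 scale, and TWIST1 and TWIST2 had 0 counts. Of the 8 proteases that cut cadherins, all tested, 3 were higher, NCSTN and ADAM17 among them, and 3 lower, PSENEN and ADAM10 among them, and none passed the fold cutoff. ADAM10, which sheds N-cadherin and protocadherins, fell by 0.61 ± 0.09 (adjusted p = 3.85e-05).

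The regulators of the protocadherin arrays were all measured. Of 12, 4 were higher and 2 lower without a fold cutoff. CTCF, which binds the promoters of the arrays, stood at 1803, 1889 and 1910 normalized counts in the controls and 1702, 1683 and 1629 under rhArg (log2 fold change -0.16 ± 0.09, adjusted p = 0.122). The de novo DNA methyltransferase DNMT3B fell by 1.09 ± 0.11 on the log2 scale, from 504, 511 and 560 to 248, 235 and 259 normalized counts (adjusted p = 4.01e-07), and the cohesin subunit SMC3 fell by 0.30 ± 0.10. STAG1, SMCHD1 and DNMT3A rose by 0.72 ± 0.12, 0.41 ± 0.10 and 0.30 ± 0.09. Of 10 partners of protocadherins, 9 were tested, 3 were higher and 3 lower. CYFIP2, a subunit of the WAVE complex, rose by 1.13 ± 0.11 and PTK2B, a focal adhesion kinase relative, by 1.20 ± 0.19, and the WAVE complex genes ABI1 and WASF1 fell by 0.60 ± 0.09 and 0.51 ± 0.09 on the log2 scale.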

How the data were processed

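RNA-seq counts of Y79 cells (3 control and 3 rhArg libraries) were used. Read filtering (SOAPnuke), alignment to hg38 (HISAT2) and counting per gene were done by the authors. They deposited raw counts, and per the file headers featureCounts 2.0.1 with an Ensembl 112 annotation was used, with no strand option and without reads that overlap several genes or map several times. The aligner's version was not given in the sources used here.

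Symbols were matched for 62541 of 63140 gene IDs. Counts were tested with edgeR 4.0.16 under R 4.3.3 (filter by filterByExpr, TMM scaling, then glmQLFit with glmQLFTest), and p-values were adjusted by Benjamini-Hochberg over 15221 genes. TMM factors lay between 0.975 and 1.02 and the common dispersion was 0.011. On simulated counts the procedure was tested before use. At these library totals (12580622 to 13747351 counts), low counts allow ratios only with wide counting intervals, given at 95%. Replicates of a group differed by more than sampling noise. Levels per length used exon bases in no other gene.

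In each of 5 groups the named members were up to 4 with the largest and 4 with the smallest fold changes that passed the test, with non-overlapping groups and 20 or more normalized counts on average, plus CDH1, CDH2, CDH3, CDH4, CDH5, CDH23, PCDH15, PCDHGC3, PCDHAC1 and PCDHAC2. In the fixed lists of related genes, up to 3 per direction with the smallest adjusted p were named. The members and lists were chosen with earlier results of these data known. No source says that libraries were separate cultures, so p-values reflect library-to-library spread, possibly technical. Alternatives were DESeq2 1.42.0, other scalings and filters, each library left out and the replicate number as a block. PCDH11Y is counted but its level is not given. The values of 1 gene of these lists are not reported here.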

Additional observations from a re-analysis of the deposited data

How the results depend on the processing

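RLE size factors, library totals and the replicate number as a block gave the same 21 higher and 2 lower members, with medians over all genes shifted by less than 0.1 on the log2 scale. The replicate numbers were not taken as pairs: same-numbered control and rhArg libraries had correlations of their deviations of -0.0785, 0.0589 and 0.00403, so the block result (21 higher, 2 lower) describes only a shared number. Without a filter on low counts, 26 members were higher and 4 lower, of which 5 higher were classical cadherins, and 1 higher and 2 lower were among the others. With a stricter filter 10 members were higher, 8 of them clustered protocadherins, because 11 called members were no longer tested. DESeq2 gave 1 higher and 1 lower among the others. Without a fold cutoff 4678 genes were higher and 4710 lower, and 6 members were lower, with 5 higher classical cadherins, 3 lower clustered protocadherins and 2 lower others. Leaving out each library in turn gave between 18 and 25 higher and between 2 and 4 lower members, between 15 and 22 higher and between 1 and 2 lower clustered protocadherins, and between 0 and 2 lower others. The count of lower members was 4 without control replicate 1, where PCDH8 and CDH26 were added, and 2 lower clustered members without rhArg replicate 3, where PCDHB16 reached -1.01. Without rhArg replicate 1 the calls of PCDHB10, PCDHGB7 and PCDHGA12 were lost, and PCDHGA1 was lost under 7 alternatives. Of 263 refitted log2 fold changes of named members, 258 kept their direction and side of the threshold. The exceptions at the adjusted p threshold were PCDHGC3, which passed as lower without control replicate 1 (-0.55, adjusted p = 0.0156), and PCDH8 in 4 fits, DESeq2 among them (-0.88, adjusted p = 0.0923). Levels per length over all exon bases were lower where exons are shared (11.5 for CDH23, 14.4 for PCDHB5 and 2.01 for PCDHAC2 in the controls). The depth limits members under 20 counts in all, of which there were 24 with levels described.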
